A study of Mus musculus with 2031 samples.

Results

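Pericytes and vascular smooth muscle cells are described by sets of marker genes, and 10 such genes are followed here cell by cell. *Pdgfrb*, *Cspg4*, *Rgs5*, *Vtn*, *Kcnj8* and *Abcc9* are used as pericyte markers and are called the pericyte genes here. *Acta2*, *Tagln* and *Myh11* mark contractile smooth muscle, and *Des* is found in both. Cells rich in contractile transcripts had some of the pericyte genes too, as given below. The 10 genes were taken by name from the 49671 genes of the count data. They were followed in the 135 cells that the authors assigned to the Mural type, out of 2031 cells in all, and then across the other types. The type list used here lacks 33 cells, so the totals of mural cells, astrocytes and other types given here can fall short of the authors' full sets. The cells came from C57BL/6J mice at postnatal day 56, and the labels name no further genotype or treatment. Cortex 1 and cortex 2 were suspensions of 1 mouse each, from the same litter, and hippocampus 1 and hippocampus 2 were suspensions pooled from 4 littermates each, from 2 further litters. Region can therefore not be told apart from litter and from the number of mice pooled. Cells were sorted as single viable cells that bound the ACSA-2 antibody, which recognises the sodium pump subunit encoded by *Atp1b2*, and that lacked the oligodendrocyte antigen O1, so every mural cell described here had passed a gate meant for astrocytes.

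Mural cells wrap the outside of brain vessels. Pericytes lie on capillaries and are held there by platelet-derived growth factor from the endothelium, which acts on the receptor encoded by *Pdgfrb*. Smooth muscle cells form rings around arterioles and sheets on venules and carry the contractile proteins smooth muscle actin (*Acta2*), transgelin (*Tagln*) and smooth muscle myosin heavy chain (*Myh11*). *Rgs5* encodes a regulator of G protein signalling, *Vtn* the matrix protein vitronectin and *Cspg4* the proteoglycan NG2, while *Kcnj8* and *Abcc9* encode the pore and the regulatory subunit of an ATP-sensitive potassium channel, and *Des* encodes the intermediate filament desmin.

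Mural cells numbered 27 in cortex 1, 12 in cortex 2, 48 in hippocampus 1 and 48 in hippocampus 2. Their depth was 632585 to 2544732 gene counts per cell with a median of 1217646, against a median of 1469312 in the 1781 astrocytes. Levels are given as counts per 1000000 gene counts (CPM). Smart-seq2 counts carry no molecular identifiers, so intervals and limits from counts cover counting error only. Binomial intervals for shares of cells take the cells as independent draws. Cells of a suspension share mice and preparation, so these intervals do not cover the spread between suspensions. The authors assigned the types by clustering these same counts, so levels across types and within the Mural type are given as a description, without a test. They named the types by known marker genes, so the next values describe the label and do not check it. At least 4 of the 6 pericyte genes reached 50 CPM in all but 4 of the 135 mural cells and in 14 of the 30 endothelial cells. The same held for 0 of the 1781 astrocytes and 0 of the 37 microglia, neurons and oligodendrocytes.

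Of the 10 genes, 7 had a promoter window in the RefSeq set (GRCm38.p6). The windows of 4 pericyte genes are shown because their transcripts were found together in most mural cells and because *Kcnj8* and *Abcc9* are neighbours on chromosome 6. Each stretch begins 250 bases before the RefSeq start and ends before the first annotated exon, at chr1:169655251-169655500 on the plus strand for *Rgs5*, chr11:78498870-78499090 on the plus strand for *Vtn*, chr6:142571615-142571864 on the minus strand for *Kcnj8* and chr6:142702316-142702524 on the minus strand for *Abcc9*. Capitals mark TGGGAA, the core of the site bound by the Notch partner RBPJ, which was searched on both strands.
Rgs5: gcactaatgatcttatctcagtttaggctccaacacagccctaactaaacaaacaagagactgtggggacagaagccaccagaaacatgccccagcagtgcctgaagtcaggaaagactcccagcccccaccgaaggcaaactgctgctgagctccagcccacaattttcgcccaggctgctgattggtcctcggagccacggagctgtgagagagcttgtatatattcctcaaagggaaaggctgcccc
Vtn: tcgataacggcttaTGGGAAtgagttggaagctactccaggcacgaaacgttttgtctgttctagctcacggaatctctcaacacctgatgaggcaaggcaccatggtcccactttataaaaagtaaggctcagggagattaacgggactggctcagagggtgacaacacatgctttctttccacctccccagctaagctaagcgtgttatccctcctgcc
Kcnj8: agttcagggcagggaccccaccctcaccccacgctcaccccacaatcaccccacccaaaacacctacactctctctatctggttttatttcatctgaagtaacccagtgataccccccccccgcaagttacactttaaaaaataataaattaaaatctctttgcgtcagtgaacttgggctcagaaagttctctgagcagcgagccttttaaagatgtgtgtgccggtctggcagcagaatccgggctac
Abcc9: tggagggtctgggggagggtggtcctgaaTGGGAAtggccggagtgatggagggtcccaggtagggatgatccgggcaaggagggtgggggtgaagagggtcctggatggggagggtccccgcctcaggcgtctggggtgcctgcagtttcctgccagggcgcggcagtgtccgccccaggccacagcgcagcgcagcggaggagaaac
Over the 250 bases before the start, TGGGAA was found in *Vtn*, in *Abcc9* and, between 27 and 22 bases before the start, in *Acta2*, whose bases are not shown. It was found in 21.6% of all 32851 promoter windows of the same length. The CArG box, the site of serum response factor, was searched on both strands as well and was found in none of the 7 windows and in 1.47% of all windows. *Tagln* and *Myh11* had no window. In the *Acta2* window, 33 of the 250 bases lie before the gene span given below, and its TGGGAA lies inside that span. The bases upstream of the contractile genes were therefore hardly searched. These matches describe letters and not binding.

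Among the pericyte genes, the receptor and the proteoglycan are described first. *Pdgfrb* (chromosome 18, 61045150 to 61085061, plus strand, GRCm38) had at least 1 count in all but 2 of the 135 mural cells. Summed over the mural cells of a suspension, its level was 4191 CPM in cortex 1, 3317 CPM in cortex 2, 4028 CPM in hippocampus 1 and 3983 CPM in hippocampus 2. The 4 suspensions lay close together, at 3880 ± 386 CPM (SD, n = 4), while single cells ran from 0 to 11063 CPM around a median of 3588 CPM. *Cspg4* (chromosome 9, 56865033 to 56899870, plus strand) was found less widely, in 75.6% of mural cells (95% exact binomial interval 67.4% to 82.5%). Its level was 980 CPM in cortex 1, 1047 CPM in cortex 2, 724 CPM in hippocampus 1 and 932 CPM in hippocampus 2. Among the cells with a *Cspg4* count the median was 1001 CPM, and 91 of the 135 cells had 50 CPM or more. Depth was similar on both sides of this split: the 33 cells without a *Cspg4* count had a median of 1136140 gene counts and the cells with one had 1251486.

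*Rgs5* and *Vtn* had the most counts of all 10 genes. *Rgs5* (chromosome 1, 169655501 to 169695813, plus strand) had a count in all but 3 mural cells. It was at 15624 CPM in cortex 1, 17850 CPM in cortex 2, 13112 CPM in hippocampus 1 and 16451 CPM in hippocampus 2. *Vtn* (chromosome 11, 78499091 to 78502324, plus strand) had a count in all but 1 cell and was at 24187 CPM in cortex 1, 30659 CPM in cortex 2, 27574 CPM in hippocampus 1 and 25048 CPM in hippocampus 2. *Vtn* was also the most even of the members across cells, with a coefficient of variation of 0.386 against 0.503 for *Rgs5* and 0.584 for *Pdgfrb*. A single mural cell lacked *Vtn*, and it was the cell richest in *Acta2*.

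The channel subunits were found in most mural cells but at levels that varied more. *Kcnj8* (chromosome 6, 142564837 to 142571614, minus strand) had a count in 125 of 135 cells and was at 3689 CPM in cortex 1, 5155 CPM in cortex 2, 3010 CPM in hippocampus 1 and 3386 CPM in hippocampus 2. *Abcc9* (chromosome 6, 142587862 to 142702315, minus strand) had a count in all but 14 of them and was at 1398, 1907, 1179 and 1361 CPM in the same order. Both were highest in cortex 2, the suspension with the fewest mural cells, and both were detected in all 12 of its cells. Per kilobase of exon, *Kcnj8* counts exceeded *Abcc9* counts 8.53 ± 0.310 times (SD, n = 4 suspensions), and *Kcnj8* was the higher in all but 5 of the 118 cells that had both. Either subunit was found without the other in few cells, 7 with *Kcnj8* alone and 3 with *Abcc9* alone, and 7 cells had neither. The coefficient of variation across cells was 0.802 for *Kcnj8* and 0.860 for *Abcc9*.

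**Figure D1:**
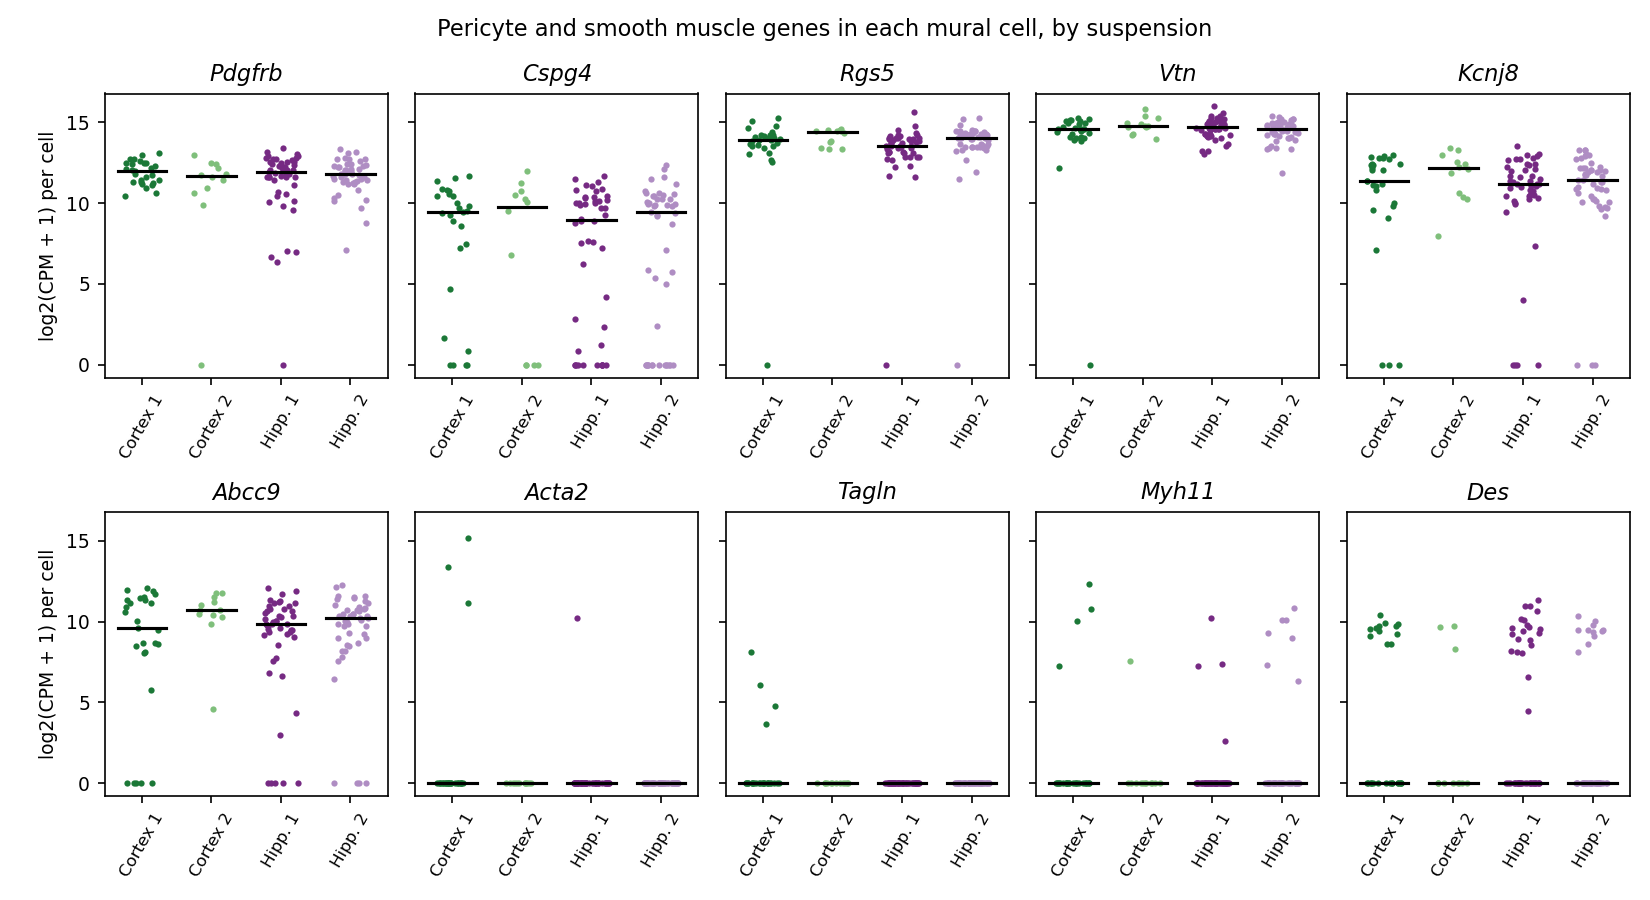
Level of each of the 10 genes in every mural cell, as log2(CPM + 1), for the 4 suspensions (27, 12, 48 and 48 cells); each point is a cell and the bar is the median. *Pdgfrb*, *Rgs5* and *Vtn* sit high in nearly all cells. *Cspg4* is at 0 in 33 cells and spreads up to 5278 CPM in the others, around a median of 1001 CPM. *Acta2* and *Tagln* are above 0 in 4 cells each.

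The contractile genes were nearly absent. *Acta2* (chromosome 19, 34241090 to 34255590, minus strand) had a count in 4 of 135 mural cells (2.96%, 95% exact binomial interval 0.813% to 7.41%), of which 3 were in cortex 1 and 1 in hippocampus 1. In cortex 2 and hippocampus 2 no count was found in 12 and 48 mural cells. As an error of counting alone this allows up to 0.203 and 0.0529 CPM. That limit does not cover the choice of cells. Each mural cell with *Acta2* had 1168 CPM or more, so a single further cell of that kind would exceed it. Its summed level of 2081 CPM in cortex 1 and 29.1 CPM in hippocampus 1 therefore came from these 4 cells, and a single cell gave 76.9% of all *Acta2* counts. Without that cell, left out after the values were seen, the mean over suspensions was 122.4 CPM for *Acta2* in place of 528 ± 1036, 61.6 CPM for *Myh11* in place of 118 ± 148 and 0.939 CPM for *Tagln* in place of 3.94 ± 7.89 (SD, n = 4). *Tagln* (chromosome 9, 45929619 to 45936058, minus strand) had a count in 4 cells, all of cortex 1, with a highest level of 273.3 CPM. Of its exon bases 67.9% also lie in exons of other annotated genes, among them *Pcsk7* on the opposite strand, and the strand setting of the counting is not given in the sources used here, so reads from that stretch cannot be assigned and the *Tagln* level is uncertain. The same holds for 5.86% of the exon bases of *Des* and 1.89% of those of *Abcc9*. *Myh11* (chromosome 16, 14194535 to 14291372, minus strand) was found in 16 cells, or 11.9% (6.93% to 18.5%), and in each of the 4 suspensions, at 336.1 CPM in cortex 1, 16.8 CPM in cortex 2, 36.7 CPM in hippocampus 1 and 83.8 CPM in hippocampus 2. *Myh11* did not simply follow *Acta2*: of the 15 cells with *Myh11* at 50 CPM or more, 12 had no count of *Acta2*.

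*Des* (chromosome 1, 75360329 to 75368579, plus strand) lay between the pericyte and the contractile genes in the share of cells, though not in level. It had a count in 47 of 135 cells (34.8%, 26.8% to 43.5%), with a median of 711 CPM in those cells. Its level was 292.03 CPM in cortex 1, 154.5 CPM in cortex 2, 361.6 CPM in hippocampus 1 and 153.97 CPM in hippocampus 2. Most of the cells with *Des* had no contractile transcript, 37 of 47 being at 0 for *Acta2*, *Tagln* and *Myh11*. All 4 cells with *Acta2* had *Des*.

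Levels between genes are comparable only per length. Per kilobase of exon, the order in mural cells was *Vtn* at 13235 ± 1433, *Rgs5* at 3467 ± 438, *Kcnj8* at 1495 ± 368.4, *Pdgfrb* at 708 ± 70.4, *Acta2* at 240 ± 472, *Abcc9* at 175 ± 37.3, *Cspg4* at 77.2 ± 11.7, *Des* at 64.1 ± 27.6, *Myh11* at 15.6 ± 19.5 and *Tagln* at 1.98 ± 3.97 CPM per kilobase (SD, n = 4 suspensions). The first 4 places were separated from each other by more than their spread. The place of *Tagln* is uncertain, since 67.9% of the exon bases by which it was divided also lie in exons of other genes. *Acta2* was separated neither from *Pdgfrb* nor from *Abcc9*, nor were *Cspg4* and *Des*, nor *Myh11* and *Tagln*, and the place of *Acta2* rested on the cells named above.

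To set the pericyte against the smooth muscle pattern, a mural cell was called contractile-high when at least 2 of *Acta2*, *Tagln* and *Myh11* reached 50 CPM, and channel-high when *Kcnj8* or *Abcc9* did. The channel pattern alone was found in 93.3% of the 135 mural cells (95% exact binomial interval 87.7% to 96.9%), which were 23 of 27 in cortex 1, 12 of 12 in cortex 2, 45 of 48 in hippocampus 1 and 46 of 48 in hippocampus 2. A further 2 cells had both patterns, 2 had the contractile pattern alone and 5 had neither. The channel-only share was 92.6% ± 10.5 (SD, n = 2) in cortex and 94.8% ± 1.47 (SD, n = 2) in hippocampus, a difference smaller than the spread between the cortical suspensions (exact permutation test, two-sided, p = 1, where 2 against 2 suspensions cannot go below 0.333). The contractile-high share was 5.56% ± 7.86 in cortex and 1.04% ± 1.47 in hippocampus (SD, n = 2 each; exact permutation test, two-sided, p = 1). Few cells lay near the limit, since within a factor of 2 of 50 CPM there were 2 cells for *Abcc9*, 2 for *Tagln*, 1 for *Myh11* and 0 for *Acta2* and *Kcnj8*. When a single contractile gene was enough, the contractile-high share was 11.9%, and in all 12 cells gained the gene was *Myh11*.

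**Figure D2:**
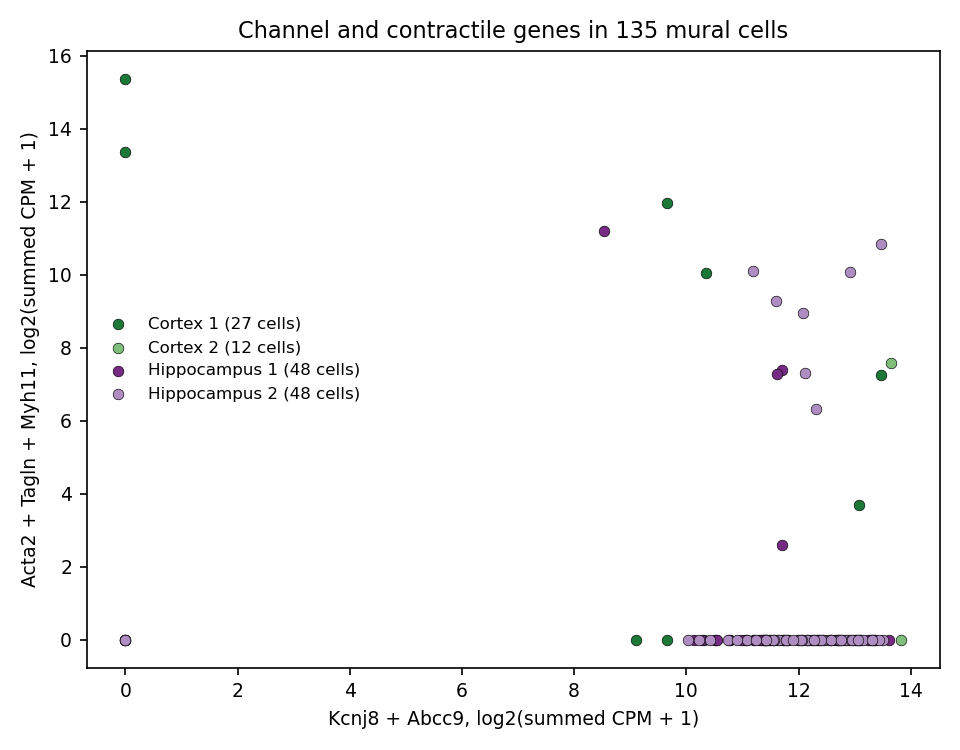
Summed *Acta2*, *Tagln* and *Myh11* (vertical) against summed *Kcnj8* and *Abcc9* (horizontal) in each of the 135 mural cells, both as log2(CPM + 1), coloured by suspension. Most cells lie along the bottom right, with channel transcripts and no contractile transcript, 2 cells of cortex 1 stand at the top left, and the 5 cells with neither pattern fall on one point at the origin.

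The 4 contractile-high cells did not look alike. The first, from cortex 1, had 36808 CPM of *Acta2*, 5201 CPM of *Myh11* and 273.3 CPM of *Tagln*, no count of *Rgs5*, *Vtn*, *Kcnj8* or *Abcc9*, and 1954 CPM of *Pdgfrb*. The second, also from cortex 1, had 10552 CPM of *Acta2* and no channel transcript but kept *Rgs5* at 35041 CPM and *Vtn* at 16987 CPM. The third, from cortex 1, carried all 10 genes, with *Acta2* at 2273 CPM, *Myh11* at 1732 CPM, *Kcnj8* at 530 CPM and *Abcc9* at 272.5 CPM. The fourth, from hippocampus 1, had 1168 CPM of *Acta2* beside the highest *Rgs5* of any mural cell, 49734 CPM, and the highest *Des*, 2529 CPM. Of the 21 further contractile genes, 17 had a higher mean in the 4 cells than in the other mural cells, 2 had a lower one and 2 had no count in either. Singled out after their values were seen, *Cald1* (caldesmon) was lower, at a mean of 2102 against 2708 CPM, while *Myl9*, the regulatory myosin light chain, was at 6692 to 14786 CPM in the 4 cells against a mean of 3042 CPM in the other mural cells, *Tpm2*, a tropomyosin, was found in 4 of 4 at 261.8 to 3228 CPM against 22.9% of the others, and *Cnn1* (calponin) and *Pln* (phospholamban) were each found in 1 of the 4 and in 0 of the others. Of the 17 further pericyte genes, 15 had a lower mean in the 4 cells and 2 a higher one. The share of all genes going either way was not counted, so neither list count is read as a result. Also singled out after their values were seen, *Atp13a5*, a transporter gene used as a pericyte marker, was found in 2 of the 4 cells and 97.7% of the others, whereas *Higd1b*, *Cd248*, *Notch3* and *Slc19a1* were each found in 4 of 4, and *Mcam* was higher in the 4 cells, at a mean of 1005 against 448 CPM. With 4 cells chosen for *Acta2*, these values are a description.

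Of the 5 cells with neither pattern, 3 still had *Pdgfrb* between 3751 and 4061 CPM, *Rgs5* between 8717 and 18875 CPM and *Vtn* between 19744 and 34612 CPM. The remaining pair had no count of *Rgs5*, *Kcnj8* or *Abcc9*, and their *Vtn* was 15237 and 3659 CPM. In 1 of the pair *Pdgfrb* had no count either. Between genes, the highest Spearman correlation across the 135 cells was that of *Acta2* and *Tagln*, at 0.754, which rested on 5 cells with a count of either. *Kcnj8* and *Abcc9* had a correlation of 0.289, and of 0.236 when taken within suspensions. *Vtn* had 0.276 with *Kcnj8* and -0.207 with *Rgs5*. Cells share a suspension and a plate, so these values are given without a test.

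Genes whose pattern was most like the channel score, the mean log2(CPM + 1) of *Kcnj8* and *Abcc9*, were sought by Spearman correlation within suspensions over the 135 mural cells, among 2411 genes with a count in at least 20% of them, the members left out. *Sod3*, the extracellular superoxide dismutase, stood first at 0.375, followed by *Rgs4* at 0.332, *Zbtb43* at 0.323, *Pkm* at 0.311, *Ecm2* at 0.294, *Gm6560* at 0.276, *Ctsb* at 0.273 and *Tfpi* at 0.249. The lowest were *Cd200* at -0.311, *Gng12* at -0.286 and *Rps7* at -0.257. *Vtn* reached 0.261 and *Rgs5* -0.0148, and the 99th percentile of the genes was 0.217. For the contractile score the highest were *Col4a3* at 0.355, *Brd3* at 0.317, *Sec61b* at 0.287, *Pam* at 0.281, *Myo6* at 0.275, *Selenos* at 0.263, *Tmem123* at 0.251 and *Acap2* at 0.250, and the lowest were *Pcdh18* at -0.289, *Cst3* at -0.225 and *Hdlbp* at -0.218. That score was above 0 in 18 cells, so its order rests on few cells, and leaving out a suspension kept between 1 and 5 of its 8 leading genes.

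The other genes of each pathway were taken from lists. Their CPM values are not divided by length, so the genes named below are those with the most counts in their list, and their order is not an order of transcript levels. Of 17 further pericyte genes, 15 were found in over 25% of mural cells; those with the most counts were the transporter genes *Atp13a5* at 6485 ± 648, *Slc19a1* at 2898 ± 436 and *Slc6a20a* at 2419 ± 363.9 CPM, and the receptor gene *P2ry14* at 1991 ± 569 CPM (SD, n = 4 suspensions). Of 21 further contractile genes, 10 were found in over 25% of mural cells, and their summed level was 9445 ± 1635 CPM. Those with the most counts were *Myl9* at 3315 ± 817, *Cald1* at 2814 ± 353.02, *Casq2* (calsequestrin) at 1275 ± 623 and *Mylk* (myosin light chain kinase) at 561 ± 46.5 CPM. Also in that list, and singled out after their values were seen, *Cnn1* and *Pln* had a count in 0.741% of mural cells each, *Myocd*, the coactivator of contractile genes, in 1.48%, and *Actg2* in none of 135. *Cald1* was found in all 135 mural cells and *Myl9* in 98.5%, including cells without *Acta2*.

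The partners of the members were read in the same way. Of the 5 further PDGF genes, the ligand gene *Pdgfa* was at 56.6 ± 89.6 CPM in mural cells, the receptor gene *Pdgfra* at 10.7 ± 21.4 and the ligand genes *Pdgfb* and *Pdgfd* at 7.69 ± 15.4 and 0.00696 ± 0.0139 CPM. *Pdgfa* had a count in 13 of the 135 mural cells, and *Pdgfra*, *Pdgfb* and *Pdgfd* in 1 each. *Pdgfb*, the endothelial ligand of PDGFRB, was at 178.5 CPM over the 30 endothelial cells. The channel genes of the other family, *Kcnj11* and *Abcc8*, had no count in any of the 135 mural cells, which for a share allows up to 2.22% of cells. Among the receptors and partners of vitronectin, *Itgb1* was at 1364 ± 342.9 CPM, *Itgb5* at 263.3 ± 187.2, *Itgav* at 104.3 ± 55.2 and *Itga8* at 59.9 ± 54.4 CPM, while *Itgb3*, named after its value was seen, had no count. *Rgs4*, a relative of *Rgs5*, was found in 94.1% of mural cells at 5673 ± 967 CPM, and *Rgs16* at 78.8 ± 53.9 and *Rgs2* at 6.90 ± 10.3 CPM had fewer counts. The soluble guanylate cyclase subunits *Gucy1b3* and *Gucy1a3* were at 1017 ± 92.9 and 979 ± 52 CPM, the endothelin receptor gene *Ednra* at 591 ± 115.7 and the purinergic receptor gene *P2rx1* at 155 ± 58.1 CPM (SD, n = 4 suspensions each). The angiotensin receptor gene *Agtr1a* and the adrenergic receptor genes *Adra1d* and *Adra2a*, also named after their values were seen, had no count in mural cells.

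Markers of other cells were measured in the mural cells as well. Of the 8 astrocyte genes, *Atp1b2*, the gene of the sorted antigen, had the most counts, at 3028 ± 338.8 CPM and in 99.3% of mural cells, while *Slc1a3* was at 170.9 ± 116.8, *Gjb6* at 39 ± 61.2 and *Gja1* at 26.8 ± 43.4 CPM and the defining gene *Aldh1l1*, named after its value was seen, was at 0.00441 ± 0.00882 CPM. The 8 summed to between 1.29 and 10532 CPM per mural cell, with a median of 2994 CPM, against a median of 43862 CPM in astrocytes. Most of the mural sum was *Atp1b2*, which gave 3028 of a mean of 3284 CPM over suspensions. The 6 endothelial genes were at 0 in 90 of 135 mural cells and passed 1000 CPM in 14. Those with the most counts were *Flt1* at 193.8 ± 100.02, *Cldn5* at 81.6 ± 48.7, *Tek* at 49.9 ± 23.9 and *Ly6c1* at 33.7 ± 24 CPM. Of 7 fibroblast genes, *Col1a2* was found in 44.4% of mural cells at 282.2 ± 98 CPM, *Ogn* was at 162.8 ± 62.5, *Col3a1* at 114.2 ± 86 and *Dcn* at 85.4 ± 47.1 CPM, and their sum was 0 in 58 of the 135 cells. The sum was uneven, with a median of 74.9 CPM and 15098 CPM in the highest cell. *Ogn* had a count in 21 cells, *Col3a1* in 16 and *Dcn* in 5. The 4 microglial genes summed to at most 0.974 CPM in any suspension. The genes with the most counts were *Pdgfra* at 10.7 ± 21.4 CPM among the genes of oligodendrocyte precursors and *Snap25* at 10.1 ± 12.1 CPM among those of neurons. *Pdgfra* had a count in 1 mural cell and *Snap25* in 2. The part of these transcripts in the members' levels was not tested.

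Across the other types, endothelial cells came closest. All 30 had *Rgs5*, at 1492 to 17461 CPM, and it averaged 7389 ± 1425 CPM over the 3 suspensions with at least 5 such cells (SD, n = 3), below the 13112 to 17850 CPM of mural cells. *Vtn* was found in 22 of the 30 at 5169 ± 1997 CPM, *Abcc9* in 15, *Pdgfrb* in 14, *Kcnj8* in 14 and *Cspg4* in 8, and neither *Acta2* nor *Tagln* had a count in any, which for a share allows up to 10% of cells. *Vtn* was uneven over these cells, with a median of 2085 CPM. The 14 with the highest sum of the 6 pericyte genes had 2159 to 25126 CPM, and the remaining 16 had 0 to 2858 CPM. That sum includes *Vtn*, so this split follows in part from the ranking. Of the endothelial cells, 8 had *Rgs5* at 50 CPM or more and no *Vtn*, while 0 mural cells had *Rgs5* at 50 CPM or more and *Vtn* below it. Relative to *Vtn* counts, the endothelial cells held *Pdgfrb* at 0.135, *Kcnj8* at 0.123, *Abcc9* at 0.0614 and *Cspg4* at 0.0257 counts per *Vtn* count, and the mural cells at 0.152, 0.131, 0.0512 and 0.0332 in the same order. For *Rgs5* the same ratio was 1.2 in endothelial and 0.575 in mural cells. The 6 endothelial genes summed to between 7584 and 30880 CPM in every one of the 30.

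**Figure D3:**
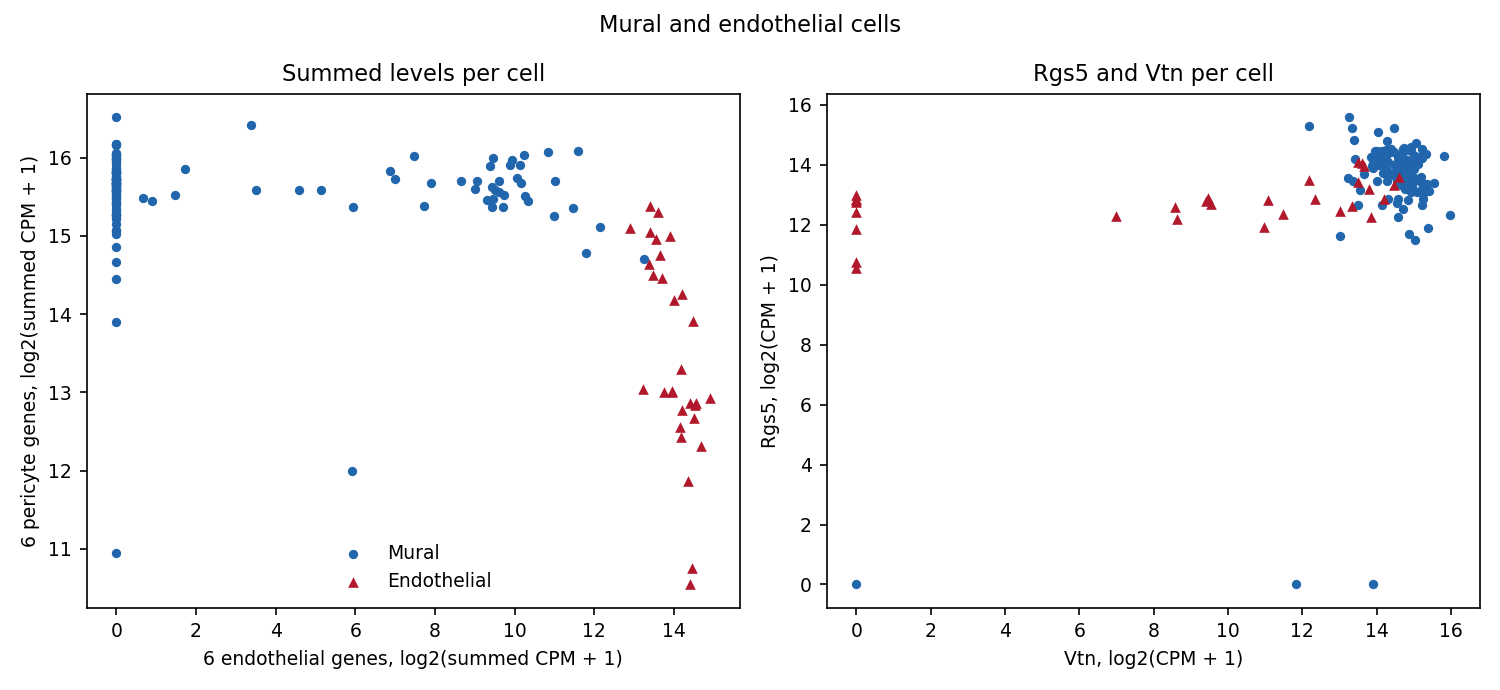
Left, the summed level of the 6 pericyte genes (vertical) against that of 6 endothelial genes (horizontal) in each mural (circles) and endothelial (triangles) cell. Right, *Rgs5* (vertical) against *Vtn* (horizontal) in the same cells, all as log2(CPM + 1): 8 endothelial cells have *Rgs5* and no *Vtn*, a place that no mural cell takes.

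In astrocytes the members were near 0 with 1 exception. *Pdgfrb* had a count in 479 of 1781 astrocytes, or 26.9% (95% exact binomial interval 24.8% to 29%), and was at 103.01 CPM in cortex 1, 111.5 CPM in cortex 2, 107.5 CPM in hippocampus 1 and 85.6 CPM in hippocampus 2. Over all astrocytes the suspensions were close, and the level stood far below the 3317 to 4191 CPM of mural cells. Of the 479 astrocytes with *Pdgfrb*, 434 had no count of the other 5 pericyte genes, and 20.5% of all astrocytes had *Pdgfrb* at 50 CPM or more. The share was 28.2% in the AST1 cells of the authors, 25.8% in AST2, 29.2% in AST3, 17.6% in AST4 and 11.5% (3 of 26) in AST5, in which no cell passed 1.38 CPM. *Pdgfrb* had no count in 17 neurons and 11 microglia, which allows shares of up to 17.6% and 27.3% when 3 cells are taken as the limit. After each cell was thinned to 500000 counts the astrocyte share was 25.3%.

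The other members in astrocytes rested on few cells. *Vtn* was at 0.0905, 0.0774, 0.0685 and 34.6 CPM in cortex 1, cortex 2, hippocampus 1 and hippocampus 2, and 1 cell with 16734 CPM gave 74.5% of its counts. *Rgs5* was at 1.35, 33.8, 11.1 and 7.29 CPM in the same order, with a count in 5.05% of astrocytes and 50 CPM or more in 17 of them. *Kcnj8* and *Abcc9* were the lowest of the pericyte genes there, at 0.00405 ± 0.00334 and 0.00245 ± 0.00181 CPM (SD, n = 4) and with no cell at 50 CPM. *Cspg4* was at 2.06 ± 1.52, *Acta2* at 3.06 ± 4.17, *Des* at 0.967 ± 0.679, *Tagln* at 0.170 ± 0.126 and *Myh11* at 0.155 ± 0.310 CPM. Without the cell richest in the gene, an alternative chosen after the values were seen, these means were 2.21 CPM for *Vtn*, 8.35 for *Rgs5*, 0.840 for *Acta2* and 0.000348 for *Myh11*. Among neurons *Rgs5* was found in 4 of 17 cells, each at 50 CPM or more, at 93.1 and 120.9 CPM in the 2 suspensions with at least 5 neurons, and *Vtn* and *Cspg4* did not reach 50 CPM in any.

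**Figure D4:**
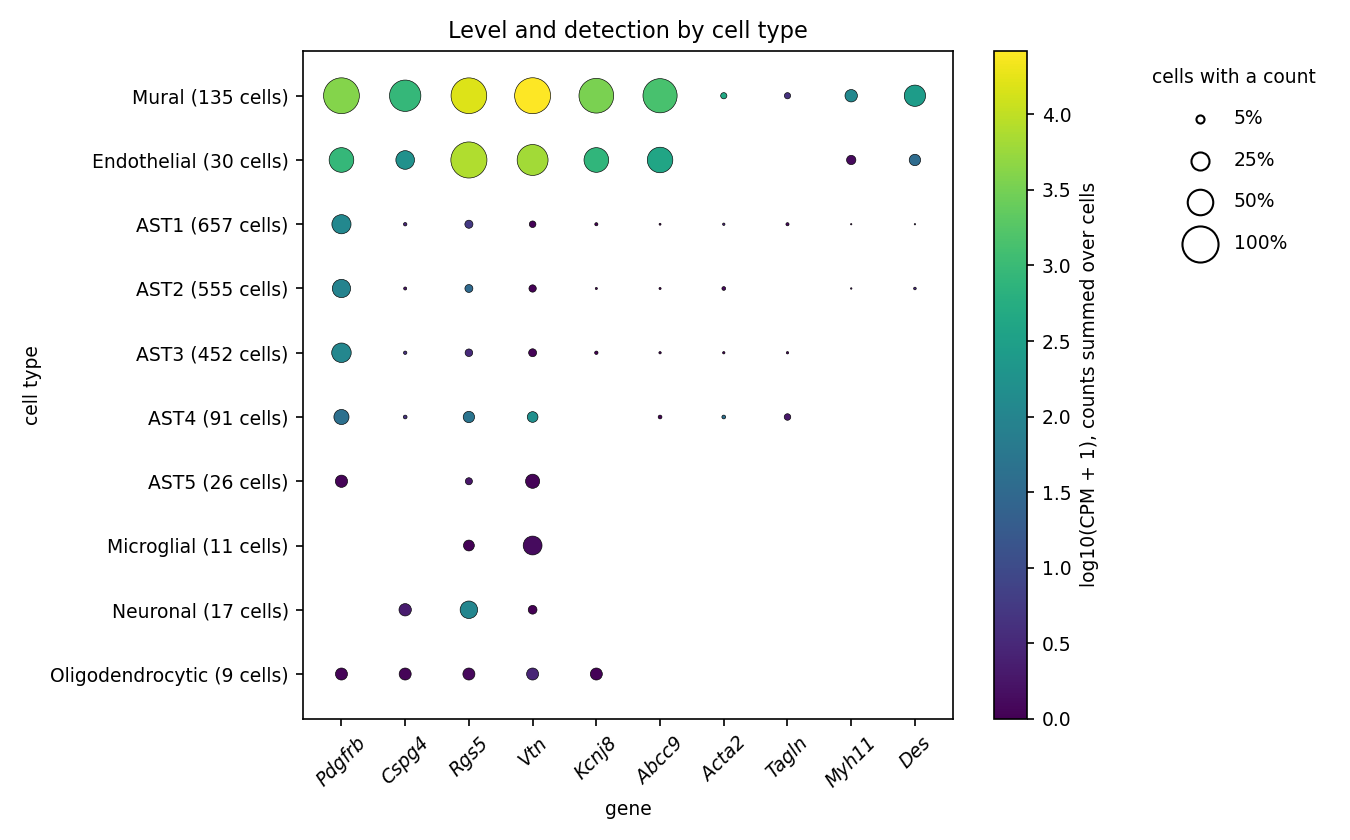
The 10 genes across cell types; the area of a dot gives the percent of cells with at least 1 count and its colour the level over all cells of the type as log10(CPM + 1). The pericyte genes fill the mural row, *Rgs5* and *Vtn* are next in endothelial cells, and *Pdgfrb* is the one member with a broad, low share (26.9%) in astrocytes.

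Region was not used to assign the types, so the members could be tested between hippocampus and cortex, with the suspension as the replicate and the counts of its mural cells summed. Nothing passed the test: by edgeR's quasi-likelihood test, 0 of 10625 genes reached a Benjamini-Hochberg adjusted p under 0.05 (0% called), where 961 had an unadjusted p under 0.05. DESeq2 called 1369 genes (12.9%), of which none was a member, and limma on the mean log2(CPM + 1) over cells called 0. No gene of the other lists was called by edgeR either. The median log2 fold change over all genes was 0.24 with the TMM scaling used, and 0.12 with library size alone.

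*Kcnj8*, *Abcc9* and *Cspg4* were the members whose regions did not overlap, all lower in hippocampus, and none was called. Regions did not overlap for 37.2% of the 10625 genes, 12.6% being lower and 24.7% higher in both hippocampal suspensions, so 3 of 10 members is below the share in either direction and above the share in this one, and nothing is read from so small a count. *Kcnj8* was at 3689 and 5155 CPM in cortex and 3010 and 3386 CPM in hippocampus, a log2 fold change of -0.32 (SE 0.18, 95% interval -0.82 to 0.18, adjusted p = 0.995 by edgeR). *Abcc9* had a log2 fold change of -0.24 (SE 0.20, -0.80 to 0.33) and *Cspg4* of -0.15 (SE 0.22, -0.76 to 0.45), which turned to 0.021 without hippocampus 1. The interval of each of these 3 differences includes 0. The fit also gave *Pdgfrb* 0.22 (SE 0.19, -0.33 to 0.77), which was 0.016 without cortex 2 and 0.45 without cortex 1. It gave *Rgs5* -0.04 (SE 0.14, -0.43 to 0.35) and *Vtn* 0.08 (SE 0.11, -0.22 to 0.38), whose sign turned with library size alone (-0.05), so for *Pdgfrb*, *Rgs5* and *Vtn* a difference of more than 0.77 in either direction on the log2 scale lies outside the intervals. For *Acta2* (SE 4.98), *Myh11* (SE 1.55) and *Des* (SE 0.64) the intervals were too wide to place a difference, and *Tagln* had too few counts to be tested.

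In astrocytes, 0 of 19160 genes were called by edgeR (0%), with 2609 at an unadjusted p under 0.05, and limma called 506. *Pdgfrb*, at 107.3 ± 6.01 CPM in cortex and 96.6 ± 15.5 CPM in hippocampus (SD, n = 2 each), had a log2 fold change of -0.13 (SE 0.15, -0.56 to 0.30, adjusted p = 0.861 by edgeR). DESeq2 called 1858 genes (9.7%), among them *Vtn* (adjusted p = 0.0199) and *Acta2* (adjusted p = 8.94e-05). In both, a single cell held most of the counts, 74.5% for *Vtn* and 72.1% for *Acta2*, and edgeR gave an adjusted p of 0.423 and 0.265. The astrocyte subtypes were not spread evenly over the regions: AST4 had 2 cells in cortex 1, none in cortex 2, 41 in hippocampus 1 and 48 in hippocampus 2. AST4 cells held 21154 of the 21334 *Vtn* counts and 5443 of the 7551 *Acta2* counts of all astrocytes. Few AST4 cells held these counts. *Acta2* had a count in 1 of 91 AST4 cells, and *Vtn* reached 10 CPM in 2 of them. The part of subtype in the difference between regions was not tested.

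**Figure D5:**
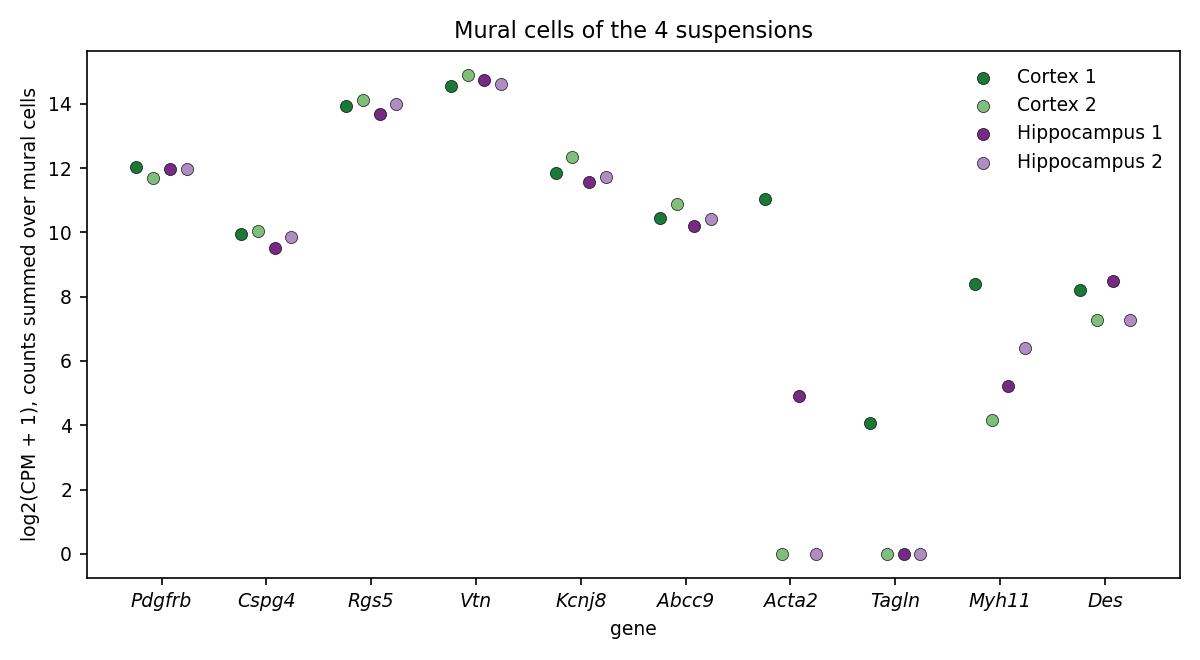
Level of the 10 genes in mural cells of the 4 suspensions, as log2(CPM + 1), cortex and hippocampus side by side; each point is a suspension. *Kcnj8*, *Abcc9* and *Cspg4* are lower in both hippocampal suspensions, with intervals of the difference that include 0 and with 37.2% of all genes likewise not overlapping, and *Acta2* and *Tagln* stand high in cortex 1.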

How the data were processed

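Single cells were sorted from 4 suspensions, 2 of cortex and 2 of hippocampus, into 32 plates and read by Smart-seq2. The authors deposited raw gene counts per cell, made with STAR 2.5.2b, Samtools 1.4 and HTSeq 0.6.1p1 on GRCm38.p5 with GENCODE annotation. The strand setting is not given in the sources used here. Of the 2031 cells, 2030 were read from files of their own and 1 from the series table, of whose 2031 columns a further 12 were compared with files and 2018 were not used. No pair of cells had identical counts, and no doublet caller was run. Cell types were those the authors assigned; 48 cells without one here entered no comparison.

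Counts were divided by gene counts per cell, or summed over the cells of a suspension, to give CPM. Regions were compared with edgeR 4.0.16 (quasi-likelihood, TMM, Benjamini-Hochberg, adjusted p under 0.05), with DESeq2 1.42.0 and limma 3.58.1 as alternatives (R 4.3.3). The test had first been tried on simulated counts with the same spread set for every gene, which does not show its power on these data. Shares were compared by exact permutation in Python 3.11.15 with scipy 1.17.1. The suspension was the replicate, so p-values rest on the spread between 4 suspensions. A suspension held 1 mouse in cortex and 4 mice in hippocampus, so the spread within a region is not of the same kind in both. Alternatives were other scalings, filters, detection limits, thinning to 500000 counts per cell, a replicate block and leaving out each suspension. Named genes were the members, up to 4 genes of each list with the highest mural level, and the 8 highest and 3 lowest correlations with each score; others are marked as chosen after their values were seen. The members and lists were chosen with earlier results of these data known.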

Additional observations from a re-analysis of the deposited data

Results flagged for a closer look

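Among 20 sets of 4 suspensions (10 genes in mural cells and in astrocytes), 6 had a suspension far from the other 3 by Dixon's 95% limit, where chance gives about 1 in 20 for values without many zeros. In mural cells these were *Acta2* at 2081 CPM and *Tagln* at 15.8 CPM, both in cortex 1; the other 3 suspensions were at 0 for *Tagln*, which sets the result. In astrocytes they were *Cspg4* at 4.32 CPM in hippocampus 1, *Vtn* at 34.6 CPM in hippocampus 2, and *Abcc9* at 0.00516 CPM and *Myh11* at 0.620 CPM in cortex 2. *Abcc9* rested there on 7 counts in all, and 1 cell held 99.8% of the *Myh11* counts.

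The log2 fold change of *Cspg4* between regions had opposite signs in mural cells and astrocytes, and neither passed the test. In mural cells it was lower in both hippocampal suspensions, with a value of -0.15 that turned to 0.021 without hippocampus 1, and in astrocytes it was higher in both, with 1.33 (95% interval -1.03 to 3.70, adjusted p = 0.624 by edgeR) at levels of 1.06 to 4.32 CPM. Of all genes tested, 12.6% were lower in both hippocampal suspensions in mural cells, and 21.9% were higher in both in astrocytes. *Cspg4* had a count in 15 of 1781 astrocytes. The difference between the *Cspg4* changes was not tested.

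Of the 33 cells that are absent from the type list used here, all from a single plate of cortex 1, 2 had at least 4 of the 6 pericyte genes at 50 CPM or more. *Vtn* was at 23995 and 21312 CPM and *Rgs5* at 15524 and 27025 CPM in them, and *Acta2*, *Tagln* and *Myh11* had no count.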

How the results depend on the processing

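No member was called between regions in mural cells under any alternative. DESeq2 called 1369 genes in mural cells and 1858 in astrocytes, and limma 506 in astrocytes, against 0 by edgeR; the cause was not tested. The channel-only share was 84.4% and the contractile-high share 11.9% when 1 contractile gene was enough, which by construction admits more cells, and both moved by less than the spread between suspensions under the other limits and thinning, the contractile-high share falling to 0.741% (from 2.96%) when all 3 genes were required. Leaving out 1 suspension moved the channel-only share between 92% and 95.4% and the contractile-high share between 0.926% (without cortex 1, 1 cell left) and 4.6%.

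Leaving out 1 suspension gave 0 calls in each case but turned the sign of several log2 fold changes, which ranged from -0.34 to 0.021 for *Cspg4*, -0.21 to 0.12 for *Rgs5*, -0.038 to 0.20 for *Vtn*, -18.16 to 12.39 for *Acta2*, -2.40 to 2.03 for *Myh11* and -0.42 to 0.92 for *Des* in mural cells, and from -0.30 to 0.025 for *Pdgfrb*, -1.87 to 2.81 for *Rgs5*, -0.27 to 8.71 for *Vtn* and -12.64 to 0.49 for *Des* in astrocytes. In mural cells *Kcnj8*, *Abcc9* and *Pdgfrb* kept their sign (-0.51 to -0.12, -0.40 to -0.06 and 0.016 to 0.45), and *Pdgfrb* was 0.099 with library size alone. *Vtn* in mural cells was -0.034 with RLE size factors and with DESeq2 and -0.055 with library size alone, *Des* in mural cells was -0.18 with limma, and *Rgs5* in astrocytes 0.013 with limma; the causes were not tested.

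The replicate numbers do not pair the suspensions by any label, and same-numbered suspensions deviated together with a correlation of 0.00742 in mural cells and -0.0149 in astrocytes. A replicate block gave 0 calls in both and a log2 fold change of 0.43 for *Rgs5* in astrocytes in place of -0.93. When counts were scaled by spike-in counts, with 1 factor for all typed cells, mural *Vtn* was at 17654 and *Pdgfrb* at 2551. These values are not CPM, and mural cells had fewer gene counts per spike-in count than astrocytes, as given below. With 4 suspensions and 12 mural cells in cortex 2, the intervals of *Acta2* (SE 4.98) and *Myh11* (SE 1.55) were too wide to place a difference. *Tagln* was not tested in mural cells.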

Other observations

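The 6 pericyte genes summed to a median of 51790 CPM in mural cells and to at most 16748 CPM in an astrocyte. The sum passed that of the lowest mural cell (1979 CPM, the cell richest in *Acta2*) in 7 of 1781 astrocytes. Mural cells held fewer detected genes than astrocytes, with a median of 1626 against 2147, and fewer gene counts per spike-in count, with a median of 13.3 against 22.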
